A study of Mus musculus with 16 samples.

Results

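The FOS and JUN genes encode the subunits of the transcription factor AP-1, and the 8 genes described here are Fos, Fosb, Fosl1, Fosl2, Jun, Junb, Jund and Atf3, 8 of the 23999 gene symbols in the count table. They were chosen by a measured value, the lower level of Fos in myeloid sarcoma than in bone marrow, with the rest of the family taken along. The difference between sarcoma and marrow is therefore given for these genes as a description, without a test. All mice were labelled with NPM1cA, a mutant form of the nucleolar protein NPM1 found in acute myeloid leukaemia. Whole bone marrow of 9 NPM1cA/SMC3+/- mice, heterozygous for the cohesin gene SMC3, was sequenced beside myeloid sarcomas, solid tumours of myeloid blasts, of 4 NPM1cA/SMC3+/- mice. Mice 948 and 2721 gave 2 tumours each, and mice 1267 and 2721 gave marrow and sarcoma. The label 1268_1270 was counted as 1 mouse, although it may name 2 pooled mice. A single sarcoma, labelled NPM1cA without SMC3+/-, came from mouse 841. The sources used here give no age, strain or driver of the alleles.

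AP-1 is a pair of leucine zipper proteins. FOS proteins cannot pair with each other and need a JUN partner, whereas JUN proteins can also pair among themselves, and ATF3 joins JUN or acts alone, often as a repressor. Fos, Fosb, Jun, Junb and Atf3 are immediate early genes, whose transcripts appear within minutes of a growth signal, of stress or of tissue handling and decay fast, while Jund is made more steadily. In myeloid cells JUN and FOS proteins take part in monocyte and macrophage differentiation, and JunB restrains myeloid proliferation.

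The libraries held 9797201 to 39197660 counts. Marrow was crushed out of bone, filtered and freed of red cells before lysis, and tumours were lysed without those steps, so tissue and handling cannot be told apart. Libraries of marrow 737, 779 and 782 and of tumour 1 of mouse 948 were low in transcripts longer than 6000 bases (median log2 deviation -2.29, -2.37, -2.13 and -1.23), against -0.94 (marrow 1267) to 0.63 in the others. Pan-leukocyte markers (12 of 12 listed genes in the table) summed to 8058 to 15470 CPM (counts scaled to the size of each library, with TMM factors) in marrow and to 6602 to 12390 CPM in the sarcomas of mice 948, 1267 and 2721, but to 742 CPM in sarcoma 1268_1270, where adipocyte markers reached 40440 CPM. Fibroblast markers (7 of 7) summed to 0.354 to 31.6 CPM in marrow and 504 to 4897 CPM in the 4 sarcomas, and macrophage markers (7 of 8) to 15.9 to 271 and 508 to 945 CPM. No marker of these 4 lists was at 0 counts over either group. The part of cell composition in the results was not tested, and in such bulk samples fewer cells of a type and less RNA per cell cannot be told apart.

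The promoters of Fos, Jun, Junb and Atf3 are shown because the levels of Jun, Junb and Atf3 ordered the marrows much as Fos did. Each line gives the 250 bases before the annotated start site, 5′ to 3′ on the strand of the gene, from RefSeq on GRCm38.p6, for Fos at chr12:85473640-85473889 on the plus strand, and on the minus strand for Jun at chr4:95052223-95052472, Junb at chr8:84978749-84978998 and Atf3 at chr1:191183334-191183583. The sources name mm9 for the counts, so these coordinates do not apply to the count table. Capitals mark matches to the motifs searched on both strands, which were TGACTCA (the AP-1 site), TGACGTCA (the cyclic AMP response element, CRE), its core TGACG, which the full CRE overlaps, TGACATCA (the JUN site), the serum response box by its name, and TATAAA on the gene's strand only.
Fos: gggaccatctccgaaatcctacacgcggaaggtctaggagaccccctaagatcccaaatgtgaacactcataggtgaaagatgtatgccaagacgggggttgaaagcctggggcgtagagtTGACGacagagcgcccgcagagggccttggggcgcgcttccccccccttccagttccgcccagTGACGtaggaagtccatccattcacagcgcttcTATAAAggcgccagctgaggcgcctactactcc
Jun: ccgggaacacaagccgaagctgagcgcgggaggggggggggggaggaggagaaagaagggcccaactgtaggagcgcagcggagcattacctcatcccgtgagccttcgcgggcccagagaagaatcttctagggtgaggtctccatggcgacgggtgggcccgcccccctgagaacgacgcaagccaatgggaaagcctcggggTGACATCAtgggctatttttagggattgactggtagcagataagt
Junb: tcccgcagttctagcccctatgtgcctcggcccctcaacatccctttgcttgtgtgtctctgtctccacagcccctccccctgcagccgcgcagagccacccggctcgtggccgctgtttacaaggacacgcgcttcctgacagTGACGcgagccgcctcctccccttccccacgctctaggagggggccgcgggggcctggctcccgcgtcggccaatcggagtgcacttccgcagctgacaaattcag
Atf3: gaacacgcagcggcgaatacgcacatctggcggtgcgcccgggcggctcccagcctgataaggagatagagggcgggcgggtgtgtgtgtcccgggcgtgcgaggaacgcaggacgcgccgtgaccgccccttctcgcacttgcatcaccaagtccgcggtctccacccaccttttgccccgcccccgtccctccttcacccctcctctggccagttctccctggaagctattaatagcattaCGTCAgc

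The Fos window held 2 CRE cores, the first bases of which lay 129 and 66 bases before the start site, and a TATAAA 33 bases before it. Jun held the JUN site TGACATCA 45 bases before the start, the Junb window held 1 CRE core (106 bases) and the Atf3 window 1 on the opposite strand (7 bases). The Fosb window held 1 CRE core at 60 bases, and the Fosl2 and Jund windows held none of these motifs. RefSeq starts differ from those of GENCODE vM21 for some of the genes. The Atf3 and Fosl2 windows lie inside the GENCODE genes. The Jund window ends at chr8:70697738, ahead of the GENCODE start at 70698949. Windows before the GENCODE starts were not searched. Among 32851 promoter windows of the same length 17.8% held a CRE core, 2.93% a JUN site, 4.46% TGACTCA, 1.55% the full CRE, 1.47% a serum response box and 7.59% the TATAAA. Of the 8 genes 7 matched an entry, Fosl1 being the other. A match describes letters and is no measured binding site, and no match says only that these letters are not in the window.

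Fos was the gene on which the set was chosen. In marrow it had 1483 CPM in mouse 949, 531 in 779, 510 in 737, 219 in 782, 190 in 1103, 128 in 2721, 104 in 919, 60.5 in 1267 and 59.4 in 3332. Among SMC3+/- sarcomas, mouse 948 had 35.7, mouse 2721 18.6, mouse 1267 13.7 and 1268_1270 11.04 CPM, and the sarcoma of mouse 841 had 11.4 CPM. Each marrow mouse lay above each sarcoma mouse, and the lowest marrow was 1.665 times the highest sarcoma, while marrow itself ranged over 24.97 times. The mean ± SD was 365 ± 456 CPM (n = 9) in marrow and 19.8 ± 11.1 CPM (n = 4) in sarcoma, and without marrow 949 the marrow mean was 225 ± 191 CPM. The fitted log2 fold change, sarcoma minus marrow, was -4.34 ± 1.00 (SE), and it lay between -4.99 and -2.64 over 27 alternatives, the latter with scaling to pan-leukocyte genes. With the mouse as a block it was -2.77, and -2.73 in mice 1267 and 2721 alone. In a blocked fit only those mice, with both tissues, inform the tissue difference, here and below.

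The separation of Fos held for mice but not for libraries. Scaled over the 16 libraries, tumour 1 of mouse 948 had 5.13 CPM of Fos and tumour 2 had 78.4 CPM, above the marrows of mice 3332 and 1267. Summed over both tumours, of whose 1083 Fos counts tumour 1 held 85, mouse 948 was below all marrows.

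**Figure D1:**
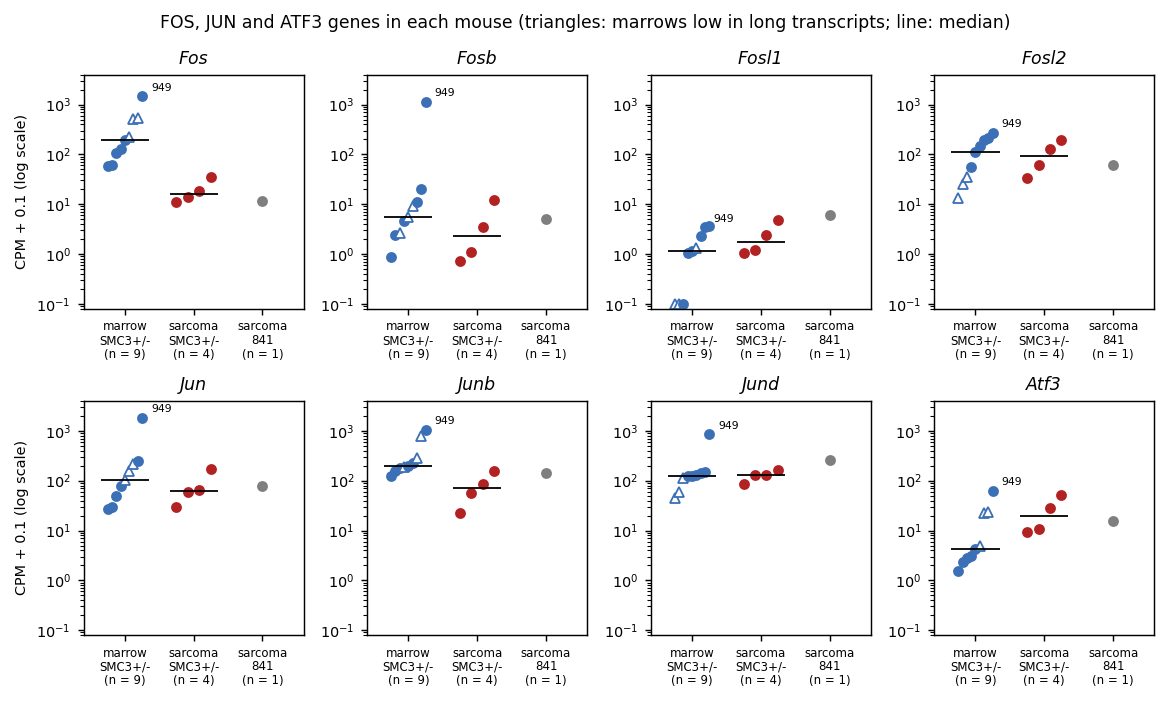
Level of each gene in each mouse, as CPM plus 0.1 on a log axis, for 9 SMC3+/- marrows, 4 SMC3+/- sarcomas and the sarcoma of mouse 841, with the median as a line and marrows low in long transcripts as open triangles. Fos is the one gene whose SMC3+/- groups do not overlap, and marrow 949 is the highest marrow for 7 of the 8 genes.

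Fosb, a further inducible FOS gene, was scarce apart from a single marrow. It had 1132 CPM in marrow 949 and 0.769 to 20.3 CPM in the other 8 marrows (median over all 9, 5.38), and in sarcoma mouse 1267 had 12.1, mouse 948 3.46, mouse 2721 0.979 and 1268_1270 0.636 CPM. The groups overlapped, with 2 of 9 marrows above the highest sarcoma. The fitted log2 fold change of -5.09 ± 2.27 rested on marrow 949, as the marrow mean was 132 CPM with it and 6.93 ± 6.37 CPM without it, beside 4.30 ± 5.37 CPM in sarcoma. Without that marrow the fold change was -0.70, and with the mouse as a block 0.65.

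Fosl1, which encodes FRA-1, a FOS protein without a transactivation domain of its own, was near the detection limit. It had 0 counts in marrow 737, 782 and 1267, where 3 counts would be 0.241, 0.212 and 0.155 CPM, and at most 3.60 CPM in the other marrows. Sarcomas 948, 2721, 1268_1270 and 1267 had 4.71, 2.26, 1.09 and 0.952 CPM and overlapped with marrow. Mouse 841 had 6.12 CPM, above all 13 SMC3+/- samples.

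Fosl2, which encodes FRA-2, ranged over 13.3 to 273 CPM in marrow (median 113) and had 192, 126, 62.0 and 34.0 CPM in sarcomas 2721, 948, 1268_1270 and 1267. Its transcript of 6537 bases is the longest of the 8, and the marrows low in long transcripts had 13.3 to 35.3 CPM, against 54.7 to 273 CPM in the other 6. The lowest of those 6 was marrow 1267, whose deviation of -0.94 just missed the cut of -1 for low libraries. The fitted change of -0.33 ± 0.71 was smaller than the SD of 1.53 between marrows, and it turned positive in 4 alternatives, among them scaling to pan-leukocyte genes (1.27).

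Jun, the partner through which most AP-1 pairs form, had 1849 CPM in marrow 949, 243 in 1103, 220 in 779, 156 in 782, 102 in 737, 77.2 in 919, 49.8 in 2721, 29.6 in 1267 and 26.4 in 3332. Sarcoma of mouse 948 had 171 CPM, that of 1268_1270 64.4, that of 2721 58.8 and that of 1267 29.6. The sarcomas lay inside the marrow range. The fitted change was -2.03 ± 1.13, and without marrow 949 the marrow mean fell from 306 to 113 ± 84.5 CPM, beside 81.0 ± 62.0 CPM in sarcoma. Scaling to pan-leukocyte genes moved the change to 0.09, and the mouse as a block to -0.18.

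Junb, a JUN protein with weaker activation that often counters Jun, came closest to Fos in its separation. Marrow had 1047 CPM in mouse 949, 790 in 779, 283 in 737 and 124 to 227 in the other 6, and sarcomas 2721, 948, 1267 and 1268_1270 had 158, 87.2, 56.5 and 22.0 CPM. Of 9 marrows 8 exceeded the highest sarcoma, the exception being marrow 1267. The fitted change was -2.29 ± 0.71 and remained negative in 27 of 27 alternatives, from -2.80 to -1.09, with -1.13 for the mouse as a block.

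Jund, the steadily made JUN protein, was the evenest gene among sarcomas, with 162, 131, 128 and 85.8 CPM in mice 948, 2721, 1268_1270 and 1267. Marrow 949 had 860 CPM, marrows 737, 782 and 779 had 43.8, 58.9 and 113 CPM, and the other 5 had 122 to 149 CPM. The fitted change was -0.74 ± 0.68 and turned positive without marrow 949, with DESeq2 and with scaling to pan-leukocyte genes (1.56).

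Atf3, a stress gene whose product binds the same sites, was the one immediate early member with a higher median in sarcoma. Sarcomas 948, 1267, 1268_1270 and 2721 had 51.5, 28.7, 10.4 and 9.41 CPM, against 63.2 CPM in marrow 949, 23.8 in 779, 22.2 in 737 and 1.47 to 4.74 in the other 6. The groups overlapped in the 3 high marrows. The fitted change of 0.70 ± 0.92 turned to -0.14 when tumour 1 alone stood for mouse 948.

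In the comparison of 4 sarcomas with 9 marrows over all 14730 genes, edgeR's quasi-likelihood test (Benjamini-Hochberg adjusted p under 0.05) called 0.0543% of genes lower and 4.49% higher in sarcoma, and all sarcoma mice were below all marrow mice for 0.122% of genes. Of the 8 members, 1 (Fos) was called lower and did not overlap, and 0 were called higher. This contrast chose the genes, so nothing is read from the count. The median log2 fold change of the 8 members was -1.39, beside 0.07 over all genes.

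Mice 1267 and 2721 allowed sarcoma and marrow of the same animal to be set side by side (differences of log2 CPM, 1 pair each, no test). Fos differed, sarcoma minus marrow, by -2.13 and -2.78 in mice 1267 and 2721. Junb differed by -1.13 and -0.52, Jund by -0.62 and -0.19 and Fosl2 by -0.69 and -0.14. Atf3 was higher in sarcoma by 3.38 and 1.61, and Fosb by 1.43 and 0.32. Jun was level in mouse 1267, at 29.6 CPM in each tissue, and differed by 0.24 in mouse 2721. Fosl1 had 0 counts in the marrow and 33 in the sarcoma of mouse 1267, and differed by 0.04 in mouse 2721. In both mice Fos and Atf3 thus lay on opposite sides. The high marrow levels of Fosb and Jun seen in mouse 949, which gave no sarcoma, were in neither. Marrow 1267 had a long-transcript deviation of -0.94, near the cut of -1 for low libraries, and its sarcoma -0.03. The part of this in the differences of mouse 1267 was not tested.

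The make-up of each family was compared per length, as CPM divided by the longest annotated coding transcript in kb. Fos formed 46.8% to 97.6% (median 75.0%) of the FOS family in the 9 marrows and 22.2% to 42.7% (median 38.0%) in the 4 sarcomas, without overlap. Fosl2 formed 1.53% to 49.0% in marrow and 33.7% to 74.1% in sarcoma. Leaving aside the marrows low in long transcripts, the Fosl2 share was 3.996% to 49.0% (median 25.35%). Fosl2 was the most abundant FOS gene per length in sarcomas 948, 1268_1270 and 2721 and in mouse 841 (48.2%), whereas in sarcoma 1267 Fos led with 42.19% and Fosb held 20.8%. Among marrows only 3332 had more Fosl2 than Fos.

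The summed FOS family had 38.3 to 1047 CPM per kb in marrow (median 107) and 15.4 to 39.7 in sarcoma (median 27.6). The JUN family was larger, with 157 to 1674 CPM per kb in marrow (median 214) and 92.0 to 199 in sarcoma (median 147). Jund formed 42.6% to 70.3% of it in sarcoma and 11.8% to 50.4% in marrow, and Junb 11.2% to 47.4% and 34.6% to 76.1%. The JUN shares overlapped between the tissues. The shares restate the levels above and share their contrast, so they are a description too.

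**Figure D2:**
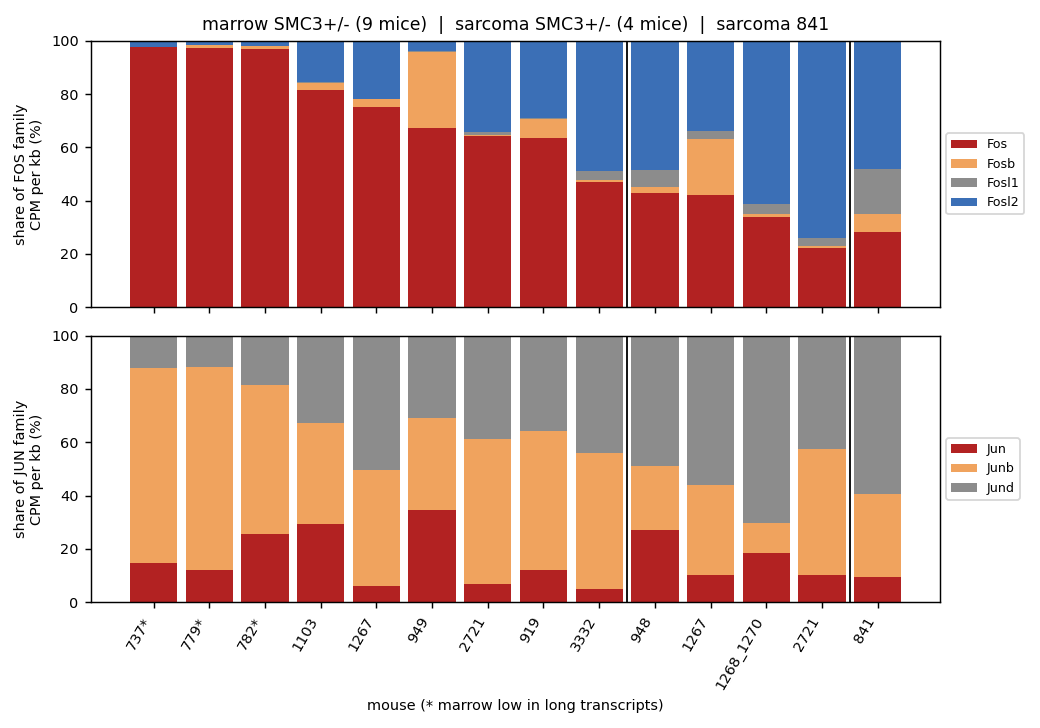
Share of each gene in the CPM per kb of the FOS family (top) and JUN family (bottom), 1 bar per mouse and tissue, with vertical lines between the 9 marrows, the 4 SMC3+/- sarcomas and mouse 841. Fos takes at least 46.8% of its family in each marrow and at most 42.7% in each SMC3+/- sarcoma.

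Tumours of the same mouse differed widely in mouse 948 and hardly in mouse 2721. The choice of genes used the Fos level of these tumours, but not the difference between tumours of the same mouse. Tumour 2 of mouse 948 had more of all 8 transcripts than tumour 1 (CPM scaled over the 16 libraries, with 95% Poisson intervals that cover counting error only). Jun had 16.1 CPM (14.2 to 18.2) in tumour 1 and 387 CPM (376 to 398) in tumour 2, a ratio of 24.0. Atf3 had 4.65 CPM (3.67 to 5.81) and 117 CPM (111 to 123), a ratio of 25.1. Fos had 5.13 CPM (4.10 to 6.34) and 78.4 CPM (73.6 to 83.4), a ratio of 15.3. The intervals of the tumours did not overlap for these 3 immediate early genes, and there was 1 library of each, so no test was made.

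The other 5 members were higher in tumour 2 as well. Fosl2 had 43.4 and 244 CPM (5.63 times), Jund 55.3 and 315 CPM (5.69 times) and Junb 27.5 and 172 CPM (6.25 times). Fosb had 0.543 and 7.54 CPM (13.9 times). Fosl1 had the highest ratio of the 8, 91.75, but on 2 counts in tumour 1 against 141 in tumour 2, that is 0.121 (0.0146 to 0.436) and 11.1 (9.32 to 13.1) CPM. All 8 members were at least 4-fold higher in tumour 2, as were 15.6% of the 14730 genes, and the median log2 difference was 3.75 for the members and -0.03 for all genes. In mouse 2721 the ratios of tumour 2 to tumour 1 ran from 0.74 (Fosb) to 1.27 (Fosl1), and Fos had 17.3 and 17.6 CPM.

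The tumours of mouse 948 also differed in their cell markers and RNA. Tumour 1 was the library low in long transcripts, and it had 130100 CPM of neutrophil maturation markers against 23990 in tumour 2, 2797 against 15.6 CPM of skeletal muscle markers, 1035 against 69.1 CPM of adipocyte markers and 15670 against 9152 CPM of pan-leukocyte markers. Fibroblast markers went the other way, with 309 CPM in tumour 1 and 800.4 CPM in tumour 2, as the 8 members did. Macrophage markers had 862 and 771 CPM. The part of these differences in the AP-1 values was not tested.

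**Figure D3:**
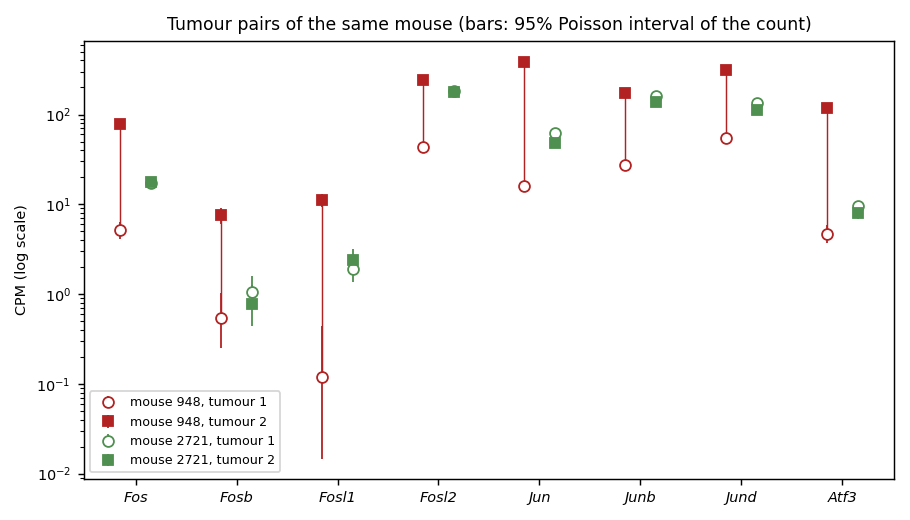
Level of each gene in tumours 1 (open circles) and 2 (filled squares) of mice 948 and 2721, as CPM on a log axis with the 95% Poisson interval of each count. In mouse 948 tumour 2 is at least 5.63 times tumour 1 for each gene, whereas the symbols of mouse 2721 lie within 0.74 to 1.27 times of each other.

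The choice of genes used the Fos level of the 9 marrows, marrow 949 included, but not how the other members varied among them. Marrow 949 was the highest of the 9 for 7 of the 8 members, Fos among them and Fosl1 being the exception, as it was for 15.3% of all genes. Against the median of the other 8 marrows the members were higher in marrow 949 by a median of 3.02 log2 units, beside 0.04 over all genes. Its library was not low in long transcripts (0.13). Neutrophil markers in it (121600 CPM) were above the 9460 to 110800 CPM of the other marrows. B lineage markers (450 against 8.87 to 134 CPM) and T cell markers (44.8 against 3.01 to 28.9 CPM) were also highest there. Macrophage and erythroid markers (227 and 602 CPM) were higher in marrows 3332 (271 CPM) and 1103 (1048 CPM). The part of library quality and of cell markers in the high values of marrow 949 was not tested.

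Jun, Junb and Atf3 followed Fos across the 9 marrows. The Pearson r of log2 CPM with Fos was 0.89 for Jun (Spearman rho 0.87), with an exact permutation p of 0.00115 (0.00451 for rho). It was 0.89 for Junb (rho 0.85), with an exact p of 0.000284 (0.00607 for rho), and 0.87 for Atf3 (rho 0.72), with an exact p of 0.00283 (0.0369 for rho). Adjusted over the 14729 genes set against Fos, these exact two-sided permutation p-values were 0.791, 0.463 and 0.799, so none passed. No gene did (0% called, against 711 at an unadjusted exact p under 0.05), and 2.21% of genes had a positive r at that unadjusted level. Exact permutation of 9 marrows bounds how small p can be, so the 0% does not show that no gene followed Fos.

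For these 3 genes r remained positive in each subset of marrows computed. Without marrows 949 and 3332, the 2 farthest from the median Fos level, r was 0.72 for Jun, 0.80 for Junb and 0.83 for Atf3. In the 6 marrows not low in long transcripts it was 0.98, 0.96 and 0.83. Leaving out each marrow in turn kept r between 0.79 and 0.95 for Jun, 0.80 and 0.93 for Junb, and 0.76 and 0.94 for Atf3.

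For Fosb, Jund, Fosl2 and Fosl1 r was lower over the 9 marrows and changed more with the marrows included. For Fosb r was 0.64 (rho 0.47, exact permutation p 0.0548 and 0.213, adjusted 0.931). It was 0.87 in the 6 marrows not low in long transcripts (0.83 for Atf3), but 0.12 without marrow 949 and -0.01 without marrows 949 and 3332. For Jund r was 0.36 (rho -0.08, exact p 0.357 and 0.843, adjusted 0.931). In the 6 marrows not low in long transcripts r was 0.95 for Jund, but without marrow 949 it turned to -0.59 over the other 8. Fosl2 had an r of -0.11 (rho -0.18, exact p 0.774 and 0.644, adjusted 0.970), which was 0.57 in those 6 marrows, and Fosl1 of 0.09 (rho -0.05, exact p 0.805 and 0.914, adjusted 0.975). Marrows 737 and 779 combined high Fos with low Fosl2 and with the loss of long transcripts, so low Fosl2 there and library quality cannot be told apart.

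The genes most like Fos over the 9 marrows, counting genes whose log2 CPM averaged 3 or more, were Etnk1 (r = 0.94), an ethanolamine kinase, Dusp1 (r = 0.93), a phosphatase that switches off MAP kinases, H2-Ob (r = 0.92), an MHC class II chaperone of B cells, Jun and Ptprcap (r = 0.89), a partner of the CD45 phosphatase. Dusp1, itself an immediate early gene, had 997 CPM in marrow 949, 940 in 737, 882 in 779 and 441 in 782, and 69.7 CPM in the lowest marrow. Etnk1 ranged over 52.0 to 138 CPM only, so its likeness is one of order and not of size. Over the whole list of 30 other immediate early and stress genes r was positive for 23, with a median of 0.47 and a range from -0.76 (Myc) to 0.93 (Dusp1). Over all 14729 genes r was positive for 6820, with a median of -0.04. The other lists used below had lower medians. These were 0.02 for leucine zipper partners, 0.09 for upstream kinases and factors, 0.18 for genes that limit FOS and JUN and 0.12 for AP-1 targets. These are descriptions over 9 libraries that share tissue and preparation.

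**Figure D4:**
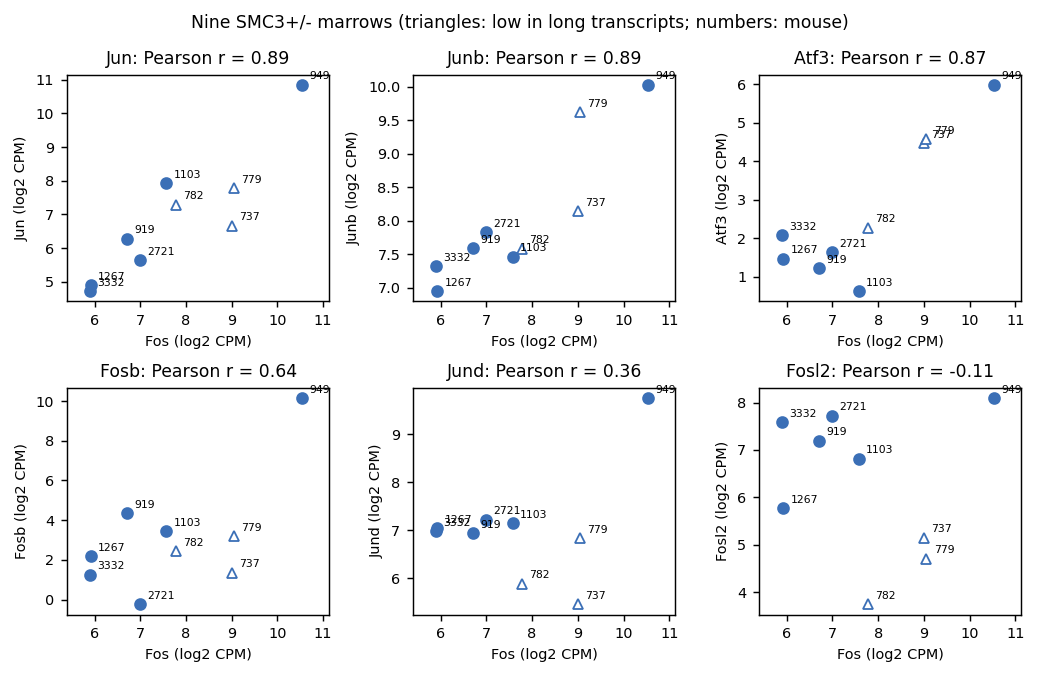
Log2 CPM of 6 genes against that of Fos in the 9 SMC3+/- marrows, each point 1 mouse named by its number, with marrows low in long transcripts as open triangles. Points of Jun, Junb and Atf3 run upwards with Fos (r = 0.89, 0.89 and 0.87), whereas r without marrow 949 was 0.12 for Fosb and -0.59 for Jund, and r for Fosl2 was -0.11.

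The sarcoma of mouse 841, labelled NPM1cA without SMC3+/-, was compared with the 4 SMC3+/- sarcomas by edgeR's quasi-likelihood test, which assumes that the lone tumour varies as they do. None of the 8 members was called (edgeR adjusted p = 0.9999 for each), and neither was any of the 17762 genes tested (0%, with 236 at an unadjusted p under 0.05), while DESeq2 called 65. With a single tumour on one side, missing the threshold does not show that the levels were alike. Jund had 257 CPM in mouse 841 against 85.8 to 162 CPM, a log2 difference of 1.02 ± 0.59, and Fosl1 had 6.12 against 0.952 to 4.71 CPM, a difference of 1.44 ± 1.25. The other 6 members lay inside the SMC3+/- range, with differences from -0.79 ± 0.91 (Fos) to 0.84 ± 0.96 (Junb). Tumour 2 of mouse 948, at 315 CPM of Jund and 11.1 CPM of Fosl1, exceeded mouse 841 in both. With scaling to pan-leukocyte genes the Jund difference was -0.60.

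The genes around AP-1 were read from 5 lists in the comparison of sarcoma with marrow. Of all 14730 genes in it, edgeR called 4.49% higher and 0.0543% lower, and 2031 had an unadjusted p under 0.05. DESeq2 called 530 of these genes (447 higher, 83 lower). Of 18 leucine zipper partners of FOS and JUN 1 rose, 0 fell and 17 were not called by edgeR (median log2 fold change 0.03, beside 0.07 for all genes). Maf, a large MAF factor of macrophages, rose by 3.02 ± 0.69 (edgeR adjusted p = 0.0208), from 4.58 ± 3.80 CPM in marrow to 43.9, 13.6, 74.4 and 30.5 CPM in sarcomas 2721, 1267, 1268_1270 and 948. Its call was lost without sarcoma 1268_1270. Macrophage markers, given above, were also higher in the 4 sarcomas than in marrow, and their part was not tested. Ddit3, the stress factor CHOP, had 12.9 ± 5.08 CPM in marrow and 27.3 ± 3.38 CPM in sarcoma (0.97 ± 0.34, edgeR adjusted p = 0.146), and Nfe2l1, which controls proteasome genes, 71.2 ± 40.6 and 265 ± 350 CPM (edgeR adjusted p = 0.157).

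None of the 24 kinases and factors upstream of FOS and JUN was called by edgeR (median -0.27). At an unadjusted p under 0.05 there were 2, beside 2031 of all 14730 genes. DESeq2 called 1, beside 530 of all 14730 genes. It was Mapk14, the p38 alpha kinase, which had 330 ± 88.5 CPM in marrow and 190 ± 67.9 CPM in sarcoma (-0.92 ± 0.31, edgeR adjusted p = 0.138). Rps6ka3, a kinase downstream of ERK, and Map2k6, which activates p38, had differences of 1.08 ± 0.50 and -0.77 ± 0.45. Of 16 genes that limit FOS and JUN 0 were called by edgeR (4 at an unadjusted p under 0.05; median -0.05), and DESeq2 called 2, Dusp6 and Csk. Dusp6, the phosphatase of ERK, had 90.6 ± 41.4 and 37.1 ± 13.8 CPM (-1.44 ± 0.43, edgeR adjusted p = 0.0803). Csk, which restrains SRC kinases, had 209 ± 32.9 and 125 ± 49.3 CPM (edgeR adjusted p = 0.115), and Dusp4, another MAP kinase phosphatase, reached 40.3 CPM in sarcoma 1268_1270 and at most 1.25 CPM in the other sarcomas.

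Of 22 tested genes listed as AP-1 targets 3 rose, 0 fell and 19 were not called by edgeR (median 0.58). DESeq2 called 6 in either direction, beside 530 of all 14730 genes. It added Gja1, Mmp9 and Spp1, whose direction is not given here. The 3 called by edgeR, Mmp3, Mmp12 and Timp1, act on the matrix. Mmp12, the elastase of macrophages, rose by 5.87 ± 1.13 (edgeR adjusted p = 0.00761), from 3.98 ± 5.54 CPM to 266, 151, 48.8 and 571 CPM in sarcomas 2721, 1267, 1268_1270 and 948, and lost its call when the 4 libraries low in long transcripts were left out. Mmp3, stromelysin, reached 12.3 to 22.0 CPM with 8 counts over all marrows (edgeR adjusted p = 0.000526), and Timp1, an inhibitor of such proteases, 6.41 to 22.9 CPM with 29 (edgeR adjusted p = 0.00497). Both passed the filter on low counts through the sarcomas alone, which fixed their direction, so the count of 3 supports nothing about the list. Fibroblast markers were high in the same 4 samples, and their part was not tested.

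Of 30 other immediate early and stress genes 2 rose, 1 fell and 27 were not called by edgeR (median -0.74). DESeq2 called 5 in either direction, beside 530 of all 14730 genes. It added Btg2 and Dusp2, whose direction is not given here. Zfp36, which hastens the decay of cytokine and Fos messages, fell by 2.67 on the log2 scale (SE 0.69, edgeR adjusted p = 0.0411), from a marrow median of 199 CPM to 34.0 to 73.9 CPM in sarcomas. Its call was lost on leaving out any 1 of the 4 sarcoma mice and without marrow 779, 919, 1103, 2721 or 3332. Cyr61 and Ctgf, secreted matricellular proteins of stroma, rose to 22.6 ± 18.3 and 31.2 ± 22.2 CPM (edgeR adjusted p = 0.0151 and 0.0260), with 87 and 205 counts over all marrows. Both lost the call without sarcoma 1268_1270, and Ctgf also without sarcoma 1267 or the 4 libraries low in long transcripts. Cyr61 had a marrow median of 0.0319 CPM and needed the sarcomas to pass the filter on low counts. This fixed its direction, so the count of 2 supports nothing about the list. With a block for the mouse, the tissue difference rests on mice 1267 and 2721, whichever other samples are fitted. In the blocked fit of all samples, none of the 7 genes called from the 5 lists was called. The blocked fit of those mice alone called Mmp3, Timp1, Mmp12 and Zfp36 again, among 7 genes of these lists. As both fits use the same pairs, they are not separate evidence.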

How the data were processed

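The authors deposited 1 table of raw whole-number counts per gene symbol for 16 libraries of poly(A) RNA, and every column was matched to a sample by its name (0 columns of other samples). Per the submitters' processing notes, the tools were STAR, DESeq and DESeq2 and the build was mm9. What each tool did, the annotation and the strand setting: not given in the sources used here. Without strand, reads of Jun and Jund cannot be told from those of the antisense genes that overlap them, nor reads of Junb and Fosl1 from the genes that overlap them on the other strand (GENCODE vM21).

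Tumours from 1 animal were summed, which left 14 samples, and the closest pair of libraries, the tumours of mouse 2721, differed by more than sampling noise (mean chi-square per gene 18.6). CPM was computed on TMM-scaled totals, log2 CPM with a prior count of 2, and the tests were two-sided: edgeR 4.0.16 (R 4.3.3, filterByExpr, robust glmQLFit and glmQLFTest), with an SE back-calculated as the absolute log2 fold change over the square root of F, and exact permutation of the 9 marrows. Alternatives used DESeq2 1.42.0, limma-voom 3.58.1, other scalings, filters and units, the mouse as a block, and each mouse left out. Which tumour stands for mouse 948 was varied after the data were seen. By the labels, marrow and sarcoma were both taken from mice 1267 and 2721, which pairs those samples (correlation of their deviations over 10118 genes 0.36 and 0.28).

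The members, the gene lists and the tests were chosen with earlier results of these data known. Named genes are the 8 members, the 3 genes of each list with the smallest p, and the 5 genes with the highest r with Fos. The listed gene Mmp10 did not pass the count filter. Cop1 stands in the table under its older symbol Rfwd2, was tested as such and was counted once. Genes named as called by DESeq2 only were chosen after their values were seen.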

Additional observations from a re-analysis of the deposited data

Results flagged for a closer look

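Among the 16 groups of samples checked (8 genes in 9 marrows and in 4 sarcoma mice), 2 held a value far from the rest by Dixon's ratio on log2 CPM, where chance alone gives about 5%. Fosb in marrow 949, at 1132 CPM, lay apart from the other 8 marrows (gap over range 0.559, critical value 0.493). Jund in the same marrow, at 860 CPM, did so too (0.589).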

How the results depend on the processing

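The comparison of sarcoma with marrow called 670 genes (662 higher, 8 lower; 447 and 83 with DESeq2). It called 6963 with pan-leukocyte scaling, which moved the median of all genes from 0.07 to 1.93 log2 units, 1368 with no count filter and 303 without the 4 libraries low in long transcripts (fewer samples). With the mouse as a replicate block it called 130 (107 higher, 23 lower), or 114 in mice 1267 and 2721 alone. Both of these fits take the tissue difference from those mice only. Leaving out each mouse gave 170 (without sarcoma 1268_1270) to 765. Of 110 pathway genes tested 7 were called, and 15 with DESeq2, 49 with pan-leukocyte scaling, 1 with the mouse as a replicate block (Spp1, chosen after its value was seen) or 7 in mice 1267 and 2721 alone, 4 without the 4 libraries and 4 to 8 without each mouse. For mouse 841, 0 calls became 65 with DESeq2, and 0 to 1 without each mouse. The count of genes correlated with Fos was 0 in each alternative. In the subsets of marrows, exact permutation left no p small enough for a lone gene to pass adjustment, so the 0 there shows little. The causes of the differences in these counts were not tested. Of the members' fold changes between tissues, those of Fos and Junb kept their sign in 27 of 27 alternatives, and Jun lost it with pan-leukocyte scaling alone. The other 5 turned in 2 to 4 alternatives.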

Other observations

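The other lists were read in the same 2 libraries that set the members apart, as values without a test. In marrow 949 the 30 other immediate early and stress genes had a median of 2.15 log2 units above the other 8 marrows and 15 of them were highest there, beside 0.04 and 15.3% over all genes. Zfp36 had 1422 CPM in marrow 949 and 126 to 443 CPM in the others. The AP-1 targets stood 0.65 higher by the median, with 6 of 22 highest in that marrow. Mmp3, Mmp12, Cyr61 and Ctgf had 0 CPM there, but were scarce in the other 8 marrows as well (medians 0, 2.49, 0.0418 and 0.646 CPM).

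Between the tumours of mouse 948, 13 of the 30 other early genes and 10 of 22 AP-1 targets were at least 4-fold higher in tumour 2. At least 4-fold lower were 0 and 1. Of all 14730 genes, 2304 (15.6%) were that much higher and 1532 that much lower. Mmp12 had 79.2 CPM in tumour 1 and 1259 CPM in tumour 2, Zfp36 23.5 and 146 CPM and Dusp1 59.1 and 373 CPM. Mmp3 went the other way, with 21.6 and 3.46 CPM. Of the 24 upstream kinases and factors 1 was at least 4-fold higher, and their median difference was -0.12.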
